A study of Saccharomyces cerevisiae with 7 samples.

Results

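Rph1 carrying the substitution S412A was compared with wild-type Rph1 by chromatin immunoprecipitation followed by sequencing (ChIP-seq) in the yeast Saccharomyces cerevisiae growing in YPL. The comparison used 3 of the 7 libraries of the series, 1 of S412A and 2 of wild type, and all 731 peaks of the deposited table. Attention was given to the 699 internal peaks on 16 chromosomes, that is, to every peak that was neither the first nor the last by position on its chromosome. The other 32 peaks were the outermost of their arms. On the left arms of chromosomes I and VII the outermost peak began at 33141 and 23720, so that outermost refers to the order of the peaks and not to a fixed distance from the chromosome end.

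All strains were CEN.PK, MATa, with Rph1 under an HA epitope tag and a HYG marker. Wild type was RPH1-HA-HYG, the substituted strain was RPH1-S412A-HA-HYG, and a strain used for comparison was RPH1-HA-HYG with ppm1::kanMX, a deletion of PPM1 (2 libraries). All of these grew in YPL, a rich medium with lactate as carbon source (2% lactate beside 1% yeast extract and 2% peptone), and were collected in log phase near an OD600 of 1.0. The remaining 2 libraries, of wild type 1 h after a change to the medium SL, entered the estimate of the spread and are otherwise given for comparison. S412A was a single library, and the labels do not say whether the wild-type libraries came from separate cultures. The p-values below therefore hold no spread between S412A libraries. For single peaks they set the change against a spread taken from the other groups. The spread between any of these libraries may be technical.

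Rph1 removes methyl groups from lysines of histone H3 with a JmjC domain, and zinc fingers near its carboxyl end bind DNA. In yeast it is known as a repressor of genes of DNA repair and autophagy and as a protein that is itself phosphorylated. Ppm1 methylates the catalytic subunit of the phosphatase PP2A, and the title of the series links demethylation of PP2A to demethylation of histones. S412A puts alanine, which has no hydroxyl group to carry a phosphate, in place of serine. ChIP-seq reads the amount of DNA recovered with the tagged protein, so each value reflects Rph1 bound near a peak together with DNA recovered without it.

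The values were whole multiples of 1 step in each library (100% within a tolerance of 0.001) which reads as a number of sequencing reads in each peak, rescaled so that every library totals 22000000. This reading could not be checked at single reads, since the lowest internal peak would hold 1010 to 2933 reads in the 7 libraries, and the read numbers here depend on it. Under it the libraries held 15445453 and 19258711 reads for wild type and 28785315 for S412A. The median internal peak held 3464 and 4438 reads in wild type and 5586 in S412A, which gives counting errors of 1.70%, 1.50% and 1.34%. Counting errors and intervals cover the counting of reads only. S412A would then be the deepest of these 3 libraries.

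Internal peaks as a whole held less signal in S412A. With the values read as numbers of reads, which could not be checked, their share of all reads was 20.0% and 21.2% in the wild-type libraries. In S412A it was 16.3% (95% Wilson interval 16.31% to 16.33%). The S412A share lay 3.73 percentage points below the nearer wild-type library, while the wild-type libraries differed by 1.12 points, the ppm1 libraries by 2.48 and the SL libraries by 4.17. The exact two-sided permutation test gave p = 0.333, the smallest p that 1 library against 2 allows. At the outermost peaks the share was 1.61% and 1.76% in wild type and 2.26% in S412A.

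Peak by peak, S412A lay below the wild-type mean at 622 of the 699 internal peaks. The median log2 change was -0.26, so that the median internal peak held 83.6% of its wild-type signal. No background was taken off here, so percentages of wild type are shares of recovered signal and not of bound Rph1. Against each wild-type library alone the median log2 change was -0.23 and -0.29. The 25th and 75th percentiles of the change were -0.41 and -0.10, the lowest was -1.13 and the highest 0.71. The wild-type libraries themselves differed by a median log2 size of 0.07, and by 0.29 at most. The change in S412A was larger than the wild-type difference of the same peak at 598 peaks (85.6%). At 308 peaks S412A was lower by more than the largest wild-type difference seen at any internal peak, and at 2 it was higher by more.

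**Figure D1:**
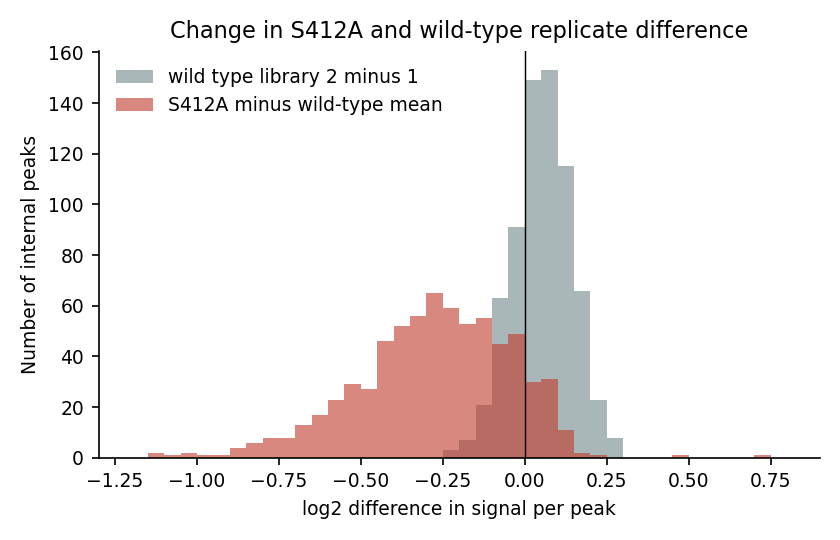
Number of internal peaks (vertical axis) by log2 difference in signal per peak (horizontal axis, bins of equal width), for S412A minus the mean of the wild-type libraries and for wild-type library 2 minus library 1. The wild-type differences lie between -0.23 and 0.29, whereas the S412A changes run from -1.13 to 0.71 with a median of -0.26.

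S412A was below both wild-type libraries at 589 internal peaks (84.3%), above both at 55 (7.87%) and between them at 55. Over all 731 peaks it was below both at 82.4% and above both at 10.1%. Differences were tested with limma on log2 signal in 1 fit of all 7 libraries, with Benjamini-Hochberg adjustment over the 731 peaks and a threshold of 0.05. Of the 699 internal peaks 122 (17.5%) passed as lower and 1 as higher, beside 17.5% lower and 1.92% higher over all peaks. The 122 lay on 15 of the 16 chromosomes, chromosome VI being the exception with 16 internal peaks. Their median log2 change was -0.61, or 65.7% of wild type, and the smallest change that passed was 0.39 in log2 size.

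These counts depended on which libraries entered the fit, and the reason was not tested. With 1 library, S412A took its spread from the other groups. The moderated SD of limma, pooled over groups and peaks, had a median of 0.14 on the log2 scale at internal peaks. The unpooled SD of the wild-type pair at each internal peak had a median of 0.05. These measures are not alike, so their gap is not a difference in spread alone. Without the first or the second wild-type library, 9 or 0 internal peaks passed as lower. Without the first or the second ppm1 library 2 or 0 passed. Without either SL library 260 passed, and in a fit of wild type and S412A alone 423 passed as lower and 5 as higher. The scaling moved the split as well. Relative to the shift of all peaks, with libraries centred on their median, 79 internal peaks were lower and 24 higher, and with quantile normalization 87 were lower and 53 higher.

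S412A covered a narrower range of signal than wild type, and with the deposited scaling to the library total its upper levels were the ones that differed. Signal per kb is the value of a peak divided by its width. The 1st percentile over internal peaks was 1265 and 1194 per kb in the wild-type libraries and 1230 in S412A, so S412A lay between them. At the 10th percentile the values were 1390 and 1358 per kb in wild type and 1364 in S412A, again between them. At the median they were 2109 and 2202 per kb against 1776. At the 90th percentile they were 2920 and 3173 per kb against 2122, and at the 99th percentile 4434 and 5055 against 2869. With this scaling the upper levels of S412A were below both wild-type libraries, and the low levels were not. The gaps from S412A to the nearer wild-type library were 332 per kb at the median, 798 at the 90th percentile and 1565 at the 99th, each smaller than the gap between the SL libraries of 341, 946 and 1745. Which end differs depends on the scaling: of the 24 internal peaks higher after median centring 20 were in the lowest of 4 classes of wild-type signal per kb, and of the 53 after quantile normalization 38 were.

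The SD of log2 signal per kb over internal peaks, which does not depend on the scaling to the library total, was 0.43 and 0.49 in wild type and 0.28 in S412A. Both ppm1 libraries, at 0.41 and 0.35, and both SL libraries, at 0.52 and 0.36, had a wider spread than S412A. The gap from S412A to the nearer wild-type library was 0.15, beside a gap of 0.05 between the wild-type libraries, 0.07 between the ppm1 libraries and 0.16 between the SL libraries. The exact two-sided permutation test gave p = 0.333, the smallest it can give here. The gap from S412A to the nearer ppm1 library was 0.06.

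**Figure D2:**
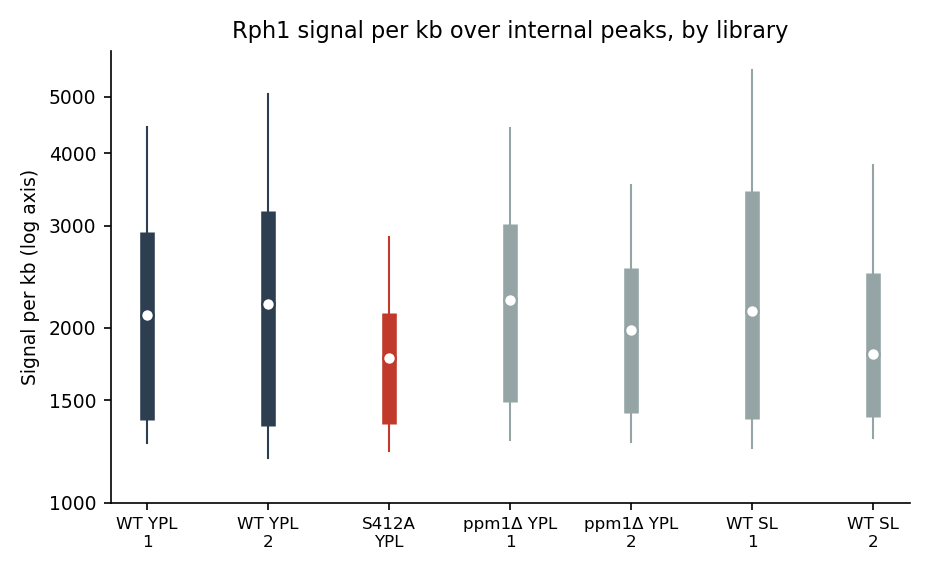
Signal per kb over the internal peaks (vertical axis, log scale) in each of the 7 libraries (horizontal axis). Thin lines run from the 1st to the 99th percentile, thick bars from the 10th to the 90th, and circles mark the median. The low ends sit close together at 1194 to 1291 per kb, while the 90th percentile of S412A, 2122, is the lowest of the 7.

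The size of the change followed the height of the peak in wild type. Internal peaks were ranked by signal per kb in wild type and split into 4 classes of about equal size. In class 1, the lowest (175 peaks), the median was 1422 and 1398 per kb in wild type and 1387 in S412A. The median log2 change there was -0.03, and 108 of the 175 lay below the wild-type mean. In class 2 (175 peaks) the median change was -0.21, and in class 3 (174 peaks) it was -0.33. In class 4, the highest (175 peaks), all 175 lay below the wild-type mean, and the median went from 2826 and 3023 per kb in wild type to 2073 in S412A, a log2 change of -0.52 or 69.6% of wild type. From class 1 to class 4, 0, 6, 20 and 96 peaks passed as lower, beside 17.5% over all peaks. The ppm1 deletion, set against the same wild-type libraries, had median log2 changes of 0.07, 0.0059, -0.04 and -0.15 in these classes.

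Height and change both use the wild-type values, so noise in those values alone can give some of this order. Classes were therefore also set by 1 wild-type library and the change measured against the other. With classes from the first library the median changes were -0.0041, -0.24, -0.36 and -0.57, and with classes from the second they were -0.05, -0.18, -0.29 and -0.48. The order was the same each way. The wild-type libraries differed along the same axis, with library 2 against library 1 at a median log2 difference of -0.03 in class 1 and 0.11 in class 4. Peaks of class 1 lay at the low end of each library, and their small change does not show that Rph1 stayed bound there.

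**Figure D3:**
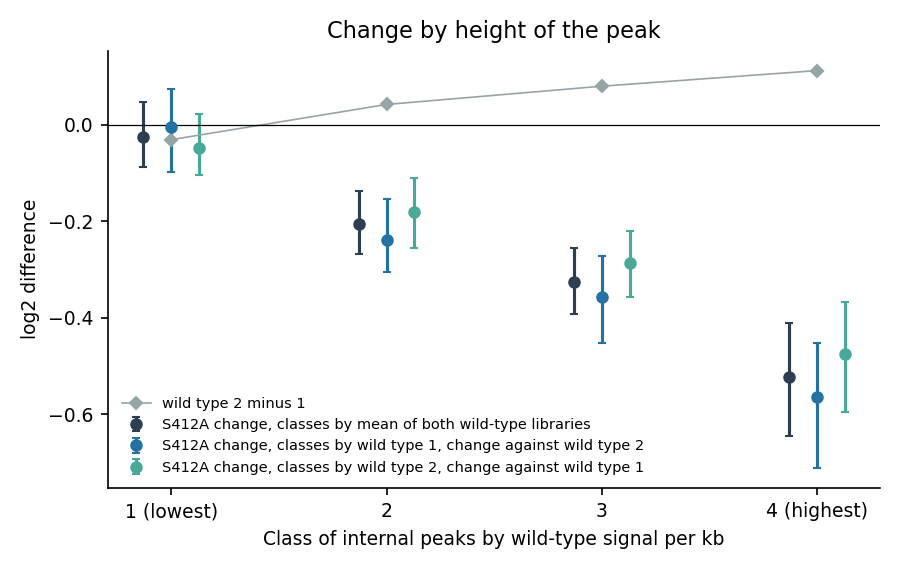
Median log2 difference (vertical axis) in the 4 classes of internal peaks by wild-type signal per kb (horizontal axis). Circles show S412A against wild type with classes set in 3 ways, bars reach from the 25th to the 75th percentile over peaks, and diamonds show wild-type library 2 minus library 1. The S412A medians go from between -0.05 and -0.0041 in class 1 to between -0.57 and -0.48 in class 4.

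**Figure D4:**
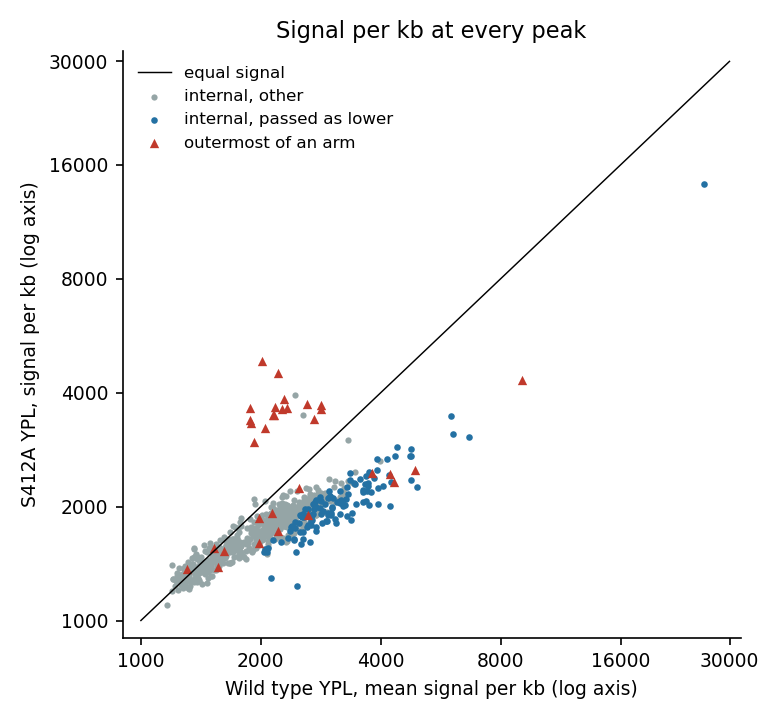
Signal per kb in S412A (vertical axis, log scale) against the mean of the wild-type libraries (horizontal axis, log scale) for all 731 peaks. Blue points are the 122 internal peaks that passed as lower, grey points the other internal peaks and triangles the 32 outermost peaks. Internal peaks leave the line of equal signal more as wild-type signal grows, and 19 of the 32 outermost peaks lie above both wild-type libraries.

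The largest fall by log2 change was at the peak on chromosome XIV from 557240 to 561414 (positions as in the deposited table, build sacCer2). It held 20021 and 21194 in the wild-type libraries and 9414 in S412A. Its log2 change was -1.13, with an SE of 0.24 and an adjusted p of 2.3e-04 in limma. The wild-type values lay close together and S412A was below 50% of either. A peak on XVI from 643761 to 647151 held 20599 and 24607 in wild type and 10325 in S412A (log2 -1.12, adjusted p = 2.0e-04). The peak on VII from 621688 to 626965 held 20098 and 24383 in wild type and 10607 in S412A, a log2 change of -1.06. At this peak the wild-type libraries differed by 0.28, among the 5 largest wild-type differences at internal peaks.

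A peak on XVI from 191854 to 195645 stood apart from the other large falls in its level. It held 8875 and 9825 in wild type and 4664 in S412A, that is, 49.9% of wild type (SE of the log2 change 0.20, limma adjusted p = 7.2e-05). Per kb that was 2341 and 2591 in wild type and 1230 in S412A, which equals the 1st percentile of S412A. Of the 10 largest falls it was the only one outside class 4 of wild-type signal per kb. The ppm1 libraries held 4582 and 4699 there, on both sides of the S412A value.

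The other 6 of the 10 largest falls left 49.5% to 54.9% of wild-type signal. The VII peak from 383144 to 389477 went from 28070 and 32227 to 14884, the XVI peak from 430771 to 434815 from 22257 and 26944 to 12572, and the II peak from 133469 to 138284 from 17729 and 20105 to 9791. The remaining ones were on IV from 145177 to 148345 (54.0% of wild type), XI from 228773 to 234370 (54.8%) and IV from 1506595 to 1510455 (54.9%). The rule for naming falls required an S412A value below both wild-type values, which at these 10 differed by log2 0.08 to 0.28. All 10 were wider than 3 kb, and the IV peak at 1506595 was the next peak in from the right end of its chromosome.

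The peaks where the wild-type libraries differed most among internal peaks were all higher in the second library, and S412A was below both at each. The XIII peak from 773150 to 775961 held 7075 and 8642 in wild type and 5445 in S412A, the I peak from 42195 to 45941 held 7804 and 9526 against 6027, and the XI peak from 67876 to 70609 held 6159 and 7506 against 4919. Their log2 changes of -0.52, -0.52 and -0.47 did not pass, with limma adjusted p-values of 0.076, 0.085 and 0.066. The other two of the 5 were the VII peak at 621688 and the XVI peak at 430771, which passed.

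The peaks highest per kb in wild type were all lower in S412A. The highest internal peak, on XII from 488758 to 490971, held 24537 and 27150 per kb in wild type and 14199 in S412A (log2 change -0.86, SE 0.17, limma adjusted p = 7.2e-05). It remained far above every other internal peak. The next by mean were both XVI peaks above, at 643761 with 6075 and 7257 per kb against 3045, and at 430771 with 5502 and 6661 against 3108. The XIII peak from 267219 to 268840 held 5670 and 6354 per kb in wild type and 3464 in S412A (log2 change -0.79). The fifth was the XIV peak at 557240, with 4795 and 5076 per kb against 2255.

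At the 5 lowest internal peaks the log2 changes ran from -0.09 to 0.23. The lowest internal peak per kb, on XII from 16404 to 20226, held 1152 and 1176 per kb in wild type and 1096 in S412A. The XVI peak from 733785 to 736020 held 1199 and 1194 per kb in wild type and 1194 in S412A. For the VIII peak from 25306 to 28522 the values were 1258 and 1152 per kb against 1287, and for the XV peak from 870618 to 873751 they were 1217 and 1197 against 1283. The fifth of the lowest, IV from 963406 to 965120, held 1247 and 1151 per kb in wild type and 1403 in S412A. None of these 5 passed the test.

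A single internal peak rose past the threshold. It lay on XII from 5977 to 11700, separated by 1944 bp from the outermost peak of the left arm, and held 12814 and 15041 in wild type and 22631 in S412A (log2 change 0.71, SE 0.24, limma adjusted p = 0.025). With the outermost peaks left out of the fit, its adjusted p no longer passed and 0 internal peaks passed as higher. The next by p was also on XII, from 1063830 to 1071424 and 547 bp from the outermost peak of the right arm, with 18313 and 20496 in wild type and 26513 in S412A (log2 0.45, adjusted p = 0.14). These were the only internal peaks more than 0.29 above wild type in log2. The other 3 with the smallest p for a higher value were small peaks in the low part of the range and did not pass: IV from 963406 to 965120 (log2 0.23), XIII from 234375 to 236171 (0.19) and XIII from 482181 to 484154 (0.19).

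Next to an outermost peak did not mean higher in general. The 32 peaks second from an end had a median log2 change of -0.34, and 9 of them passed as lower and 1 as higher, beside 17.5% lower and 1.92% higher over all peaks. The 32 that were the third from an end had a median of -0.23, and the 635 further in a median of -0.26. The 32 outermost peaks had a median of 0.35, with 13 passing as higher and 6 as lower. The median over internal peaks minus that over outermost peaks, in log2 signal per kb, was -0.01 and -0.03 in the wild-type libraries and -0.88 in S412A, an exact permutation p of 0.333. The ppm1 libraries were at -0.05 and -0.08.

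Ranks do not depend on the scaling of a library, and they were taken over the 699 internal peaks by signal per kb, with 1 as the highest. The rank order correlated between the wild-type libraries at 0.984, and between S412A and wild type at 0.902 and 0.892. Peaks are not independent replicates, and the libraries share the same peak widths, so these values describe the libraries. The median peak moved by 45 places between S412A and its mean wild-type rank, against 19 places between the wild-type libraries. More than 100 places separated S412A from the mean wild-type rank at 144 peaks, and the wild-type libraries from each other at 12. The shift in S412A was larger than the wild-type rank difference of the same peak at 504 of 699 peaks.

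Shifts were largest in the middle of the order. In classes 1 and 4 of wild-type signal per kb the median shift was 27.5 and 37 places, against 51 and 72.8 places in classes 2 and 3. The wild-type libraries differed by 14 and 11 places in classes 1 and 4 and by 24 and 31 in classes 2 and 3. Ranked by signal per peak, where width adds to the order, the median shift was 38.5 places, against 13 between the wild-type libraries.

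Of the 100 highest peaks in either wild-type library, S412A shared 69, whereas the wild-type libraries shared 90 with each other. Of the 10 highest, S412A shared 6 with each wild-type library, which shared 9 with each other. The XII peak at 488758 ranked 1 in all 3 libraries, and the XIII peak at 267219 ranked 3 and 4 in wild type and 4 in S412A. The XVI peak at 643761 went from 2 and 2 to 6, and the XIV peak at 557240 from 5 and 7 to 40. The VII peak at 383144 went from 9 and 6 to 25. Places 2 and 3 in S412A were taken by both XII peaks next to the outermost ones, which ranked 281 and 176, and 201 and 150, in wild type.

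The largest loss of rank was at the XVI peak from 191854 to 195645, which ranked 227 and 192 in wild type and 692 in S412A. The next was on IX from 50973 to 55938, with ranks of 141 and 144 in wild type and 473 in S412A, where signal went from 12804 and 13519.6 to 8020 (log2 change -0.71). The XIII peak from 872328 to 875078 ranked 242 and 186 in wild type and 537 in S412A, and the XVI peak from 39995 to 43601 went from 207 and 169 to 488. The XI peak from 112600 to 114812 went from 343 and 379 to 665, with signal of 4692 and 4713 in wild type and 2868 in S412A (log2 -0.71, SE 0.15, limma adjusted p = 2.0e-04). Its wild-type libraries differed by log2 0.01. All 5 passed as lower, and only the IX peak was in class 4 of wild-type signal per kb.

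The peaks that gained most in rank had S412A signal near that of wild type. The largest gain was at IV from 542215 to 545036, with ranks of 436 and 471 in wild type and 81 in S412A, where signal was 5443 and 5402 in wild type and 5918 in S412A. The VII peak from 1063922 to 1069195 went from 391 and 484 to 122, with 10696 and 9658 in wild type and 10714 in S412A. The others were IV from 555197 to 557203 (462 and 342 to 99), VII from 196762 to 198094 (420 and 286 to 109) and IV from 635490 to 636877 (519 and 475 to 270). None of these 5 passed the test, with log2 changes of -0.06 to 0.13 that are within the SE of 0.15 to 0.24. At all but the first of them the wild-type libraries differed by more than the change, by a log2 size of 0.15 to 0.25.

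**Figure D5:**
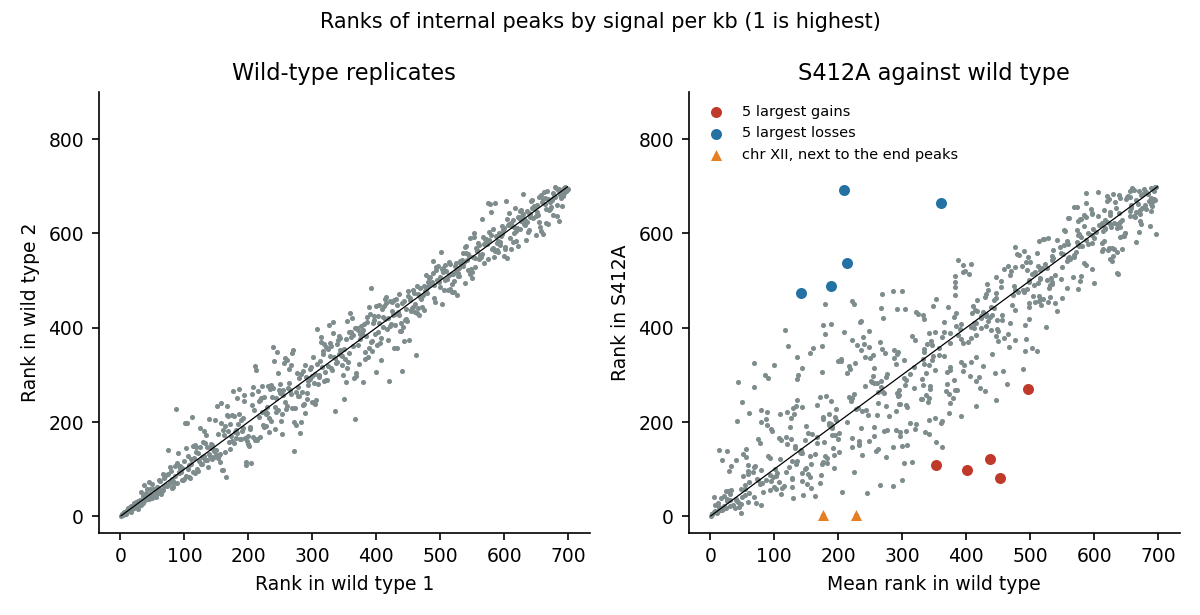
Ranks of the 699 internal peaks by signal per kb, 1 being the highest. The left panel sets wild-type library 2 against library 1 and the right panel S412A against the mean wild-type rank, with the 5 largest gains, the 5 largest losses and both XII peaks next to the outermost ones marked. The points lie closer to the diagonal on the left (median distance 19 places) than on the right (45 places).

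With the deposited scaling to the library total, the median change in S412A was negative on every chromosome. The median log2 change ran from -0.14 on VI (16 internal peaks) to -0.34 on XI (37). Chromosome VI also had the lowest median wild-type signal, 1787 per kb, and XI one of the highest, 2320. The median difference of wild-type library 2 against library 1 was -0.02 on VI and 0.10 on XI. By distance from the outer edge of the outermost peak, the 22 internal peaks within 20 kb had a median change of -0.10 and the 44 from 20 to 50 kb one of -0.34. It was -0.29 at 50 to 100 kb (89 peaks), -0.28 at 100 to 200 kb (161) and -0.24 beyond (383).

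By width, the 202 internal peaks under 2 kb had a median log2 change of -0.29, the 273 of 2 to 3.2 kb one of -0.22, and the 224 wider ones one of -0.28. Their median wild-type signal was 2316, 2028 and 2229 per kb, in the same order as the changes. Among peaks of class 4 the median was -0.45 for the narrow, -0.52 for the middle and -0.58 for the wide peaks. In class 1 it was -0.00047, -0.03 and -0.04. Of the narrow peaks 53 passed as lower (26.2%), of the middle ones 36 (13.2%) and of the wide ones 33 (14.7%), beside 17.5% over all peaks.

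The ppm1 deletion, in the same medium, served to show where S412A differs from another strain. S412A lay below both ppm1 libraries at 641 of the 699 internal peaks (91.7%), beside 89.6% over all peaks, and the median log2 difference was -0.24. In limma 0 internal peaks passed, with 119 lower and 2 higher at an unadjusted p under 0.05. Over all peaks 0.274% passed as higher and 0% as lower. In the fit of YPL libraries alone, 47 internal peaks passed as lower and 1 as higher.

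In rank order S412A was closer to the ppm1 libraries, at 0.934 and 0.955, than to wild type, at 0.902 and 0.892. The ppm1 libraries correlated with wild type at 0.919 to 0.933. Of its 100 highest internal peaks S412A shared 79 and 82 with the ppm1 libraries and 69 with each wild-type library. The gap was small at other cuts. Of the 50 highest it shared 37 with each ppm1 library and 35 and 36 with wild type. Of the 25 highest it shared 18 and 19 against 17 and 16, and of the 10 highest 8 with each against 6 with each. No test of these differences was made. At the 122 internal peaks lower in S412A the ppm1 mean lay below wild type at 120, with a median log2 difference of -0.21. Over all 699 internal peaks it lay below wild type at 370, with a median of -0.0086. Of the 122, 96 were in class 4, where the ppm1 median was -0.15 over the whole class. In the ppm1 deletion 9 of the 122 passed, beside 1.23% lower over all peaks. Both comparisons use the same wild-type libraries, so these counts share their noise.

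Side by side, the XVI peak at 191854 held 8875 and 9825 in wild type, 4664 in S412A, and 4582 and 4699 in the ppm1 deletion. The XI peak at 112600 had log2 changes from wild type of -0.71 in S412A and -0.80 in the ppm1 deletion. The direct log2 differences at these peaks, S412A minus ppm1, were 0.01 (SE 0.20) and 0.08 (SE 0.15). At some of the highest peaks the values lay further apart. The XVI peak at 430771 changed by -0.96 in S412A and -0.36 in the ppm1 deletion, a direct difference of -0.60 (limma adjusted p = 0.21). At the XIII peak at 267219 the changes were -0.79 and -0.29. These direct differences did not pass, which does not show that the strains act alike.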

How the data were processed

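The table deposited by the authors holds a signal for each of 731 peaks in each of 7 libraries. Bowtie2 and sacCer2 are the aligner and the build that the submitters' processing notes name. The sources used here do not state how peaks were called and merged, how reads were filtered or whether input DNA was used. The signal was scaled by the authors to a library total, as read from the values, and no spike-in entered here, so recovery of DNA and binding cannot be told apart. Per the labels, fixation took 15 min in 1% formaldehyde, and each immunoprecipitation started from 50 OD600 units of cells.

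Tests were run on log2 signal, with no filter and a pseudocount of 0, by limma 3.58.1 (R 4.3.3, moderated with a trend on mean signal), in 1 fit of 7 libraries with 3 residual degrees of freedom. Moderation pooled the spread over peaks, and the SD it gave ran only from 0.12 to 0.20 over the 731 peaks. The limma p-values therefore rest on this pooled spread more than on the 3 residual degrees of freedom of a peak. Values per library were compared by exact permutation. Descriptions used Python 3.11.15.

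Named internal peaks are the 10 largest falls and rises past the threshold outside both wild-type values (5 by p where under 5 passed), the 5 highest and lowest per kb in wild type, the 5 largest gains and losses of rank beyond the wild-type rank difference, and the 5 largest wild-type differences. The peaks, groups and rules were chosen with earlier results of these data known. No gene was assigned to a peak, since the reference gene table is of another build, R64. A count test was planned and not run: the values are whole multiples of 1 step, but they lie far above that step, so that whole reads could not be established.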

Additional observations from a re-analysis of the deposited data

How the results depend on the processing

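Internal peaks lower in S412A numbered 122, with 79 after median centring, 38 at an adjusted p of 0.01, 251 in a fit of YPL libraries and 423 in a fit of wild type and S412A, and 0 to 260 when 1 library was left out. Those higher numbered 1, with 24 after median centring, 53 after quantile normalization, 5 in the fit of wild type and S412A, 2 in that of YPL libraries, 0 at 0.01 or without the outermost peaks, and 0 to 1 when 1 library was left out. Over all peaks 142 passed, with 47 at 0.01, 451 and 275 in the fits of wild type and S412A and of YPL libraries, 93 without the outermost peaks, and 0 to 283 when 1 library was left out. Against the ppm1 deletion 0 internal peaks were lower (limma, 119 at an unadjusted p under 0.05), with 11 after quantile normalization, 47 in the YPL fit and 0 to 60 when 1 library was left out. In that comparison 0 were higher, with 2 after median centring, 1 after quantile normalization, 1 in the YPL fit, 1 without the trend and 0 to 1 when 1 library was left out. Where these counts differ, the cause was not tested.

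The median log2 change at internal peaks was -0.26, and -0.021 after median centring and 0.0025 after quantile normalization, which remove a common shift by construction. It was -0.29 to -0.23 when 1 wild-type library was left out. The narrower spread of S412A was -0.20 to -0.15, against -0.18, under the alternatives other than median centring, which cannot change an SD. Internal minus outermost peaks was -0.86, and -0.78 with a pseudocount of 10% of the median, -0.91 without the lowest 25% of peaks and -0.54 after quantile normalization. The median rank shift was 45 places by signal per kb and 38.5 by signal per peak.

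Of 488 values for named peaks under the alternatives, 385 kept direction and side of the threshold, 64 no longer passed, 30 newly passed and 9 changed sign, all of them at peaks that did not pass. Those were XII at 16404 (0.15 centred, 0.16 quantile), XVI at 733785 (0.23 and 0.19), VII at 196762 (0.17 and 0.12, and -0.19 to 0.061 when 1 wild-type library was left out), IV at 555197 (-0.097 to 0.14 likewise) and IV at 635490 (-0.014 to 0.15 likewise). No paired analysis was possible because S412A has 1 library and its title carries no replicate number. With a single S412A library its own spread is unknown at any depth.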

Other observations

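The rank order of internal peaks in the SL libraries correlated with S412A at 0.13 in both, and with wild type in YPL at 0.12 to 0.16. The SL libraries correlated with each other at 0.979. At the XII peak from 16404 to 20226, the lowest per kb in wild-type YPL, SL was above wild type by log2 1.31 while S412A was at -0.09. At the IV peak from 1506595 to 1510455 SL was above wild type by log2 0.62 and S412A was at -0.87. These values share the wild-type YPL libraries and are given side by side without a test of their difference.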
